A study of Mus musculus with 11 samples.

Results

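The genes described here encode the phagocyte NADPH oxidase and the inducible nitric oxide synthase, the enzymes with which microglia and macrophages make superoxide and nitric oxide. They were Cybb, Cyba, Ncf1, Ncf4, Rac2 and Nos2, 6 of 50686 genes in the count tables. The set was selected on the Cybb counts, which were lower in sorted microglia of Rheb1-deleted mice than of controls, so every value of that contrast is given below as a description, with no test.

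RNA was sequenced from GL261 tumours, a mouse glioma line grafted into the brain of C57BL/6 mice, to ask how loss of Rheb1, an activator of mTORC1, alters microglia and the tumour around them. Whole tumours (bulk) gave 3 libraries from Rheb1 fl/fl and 3 from Cx3cr1-Rheb1 Δ/Δ mice, and tumour-associated microglia (TAM-MG), sorted as single live CD11b+ CD45low cells, gave 2 and 3. Exon 3 of Rheb1 was floxed in both genotypes, and Cx3cr1-Rheb1 Δ/Δ mice carried in addition a tamoxifen-inducible Cre (CreERT2) in the Cx3cr1 locus, which is active in microglia and in part of the macrophages. All mice received tamoxifen, were injected with tumour cells 3 weeks later at 6 weeks of age, and were sampled 3 weeks after that. The Rheb1 fl/fl controls lacked Cre, so the Cre knock-in and the deletion cannot be told apart. Bulk RNA came from tissue scraped off fixed, paraffin-embedded slides and TAM-MG RNA from freshly sorted cells.

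Depth ranged from 14940787 to 21991348 counts in bulk and from 20765767 to 29947977 in TAM-MG. Levels are CPM (counts divided by the library's total and put on a common scale) corrected by TMM for library composition, within each experiment. A second deposited quantity, TPM (transcripts relative to all transcripts of the library), corrects for transcript length and was used wherever levels of different genes were compared. Ratios and differences of CPM within a library are compared between libraries only. Rheb, the deleted gene, measured 235 to 348 CPM in bulk Rheb1 fl/fl and 126 to 225 in bulk Cx3cr1-Rheb1 Δ/Δ libraries. In TAM-MG it measured 86.5 and 164 against 67.8 to 71.2. Neither experiment had overlap, beside 9.23% of all genes lower without overlap in bulk and 11.5% in TAM-MG. Its log2 fold change was -0.88 (SE 0.32, adjusted p = 0.426 by edgeR's quasi-likelihood test) in bulk. In TAM-MG it was -0.85 (SE 0.34, adjusted p = 0.552 by the same test). Rheb was not higher in TAM-MG than in bulk (log2 -0.69, SE 0.26), and its bulk values were not traced to a cell type. All 10 microglial markers (P2ry12, Tmem119, Sall1 and others) had counts in both TAM-MG groups and summed to 19260 to 34130 CPM there. Of 13 neutrophil genes, 7 to 9 had counts in a TAM-MG library. The list summed to 192 and 302 CPM in Rheb1 fl/fl and 312 to 372 CPM in Cx3cr1-Rheb1 Δ/Δ TAM-MG. This sum may hold counts from cells other than neutrophils. Csf3r, a gene of the list, was higher in TAM-MG than in bulk (log2 6.35, SE 0.59). The microglial markers were higher there too (median log2 7.16), and of 11 neutrophil genes tested 5 were called higher and 1 lower. Ly6g and Elane were at 0 counts in every library and Mpo in all TAM-MG libraries, which does not show that neutrophils were absent. Camp, a neutrophil granule gene, held 391 and 225 counts in Rheb1 fl/fl and 58, 32 and 17 in Cx3cr1-Rheb1 Δ/Δ TAM-MG. Other genes of the list went the other way. Of 9 tested by genotype in TAM-MG, 5 had negative and 4 positive log2 fold changes. Camp was the 1 lower without overlap, while Cxcr2 (3.92, SE 2.2) and Csf3r (0.71, SE 0.28) were the 2 higher without overlap.

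The phagocyte oxidase assembles only on demand. Cybb (gp91phox, NOX2) is its catalytic subunit, a membrane flavocytochrome that passes electrons from NADPH to oxygen, and Cyba (p22phox) is its membrane partner. Ncf1 (p47phox) is the organiser that docks the cytosolic subunits on the membrane, Ncf4 (p40phox) an adaptor that binds phosphoinositides, and Rac2 the small GTPase of the complex in blood cells. Nos2 makes nitric oxide from arginine once inflammatory signals induce it, and Arg1 consumes the same arginine.

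Cybb lies on chromosome X at 9435252-9487771 (minus strand, ENSMUSG00000015340), Cyba on chromosome 8 at 122424776-122432930 (minus, ENSMUSG00000006519) and Ncf1 on chromosome 5 at 134220053-134229625 (minus, ENSMUSG00000015950). Ncf4 at 78244801-78262580 (plus, ENSMUSG00000071715) and Rac2 at 78559167-78572783 (minus, ENSMUSG00000033220) share chromosome 15, and Nos2 lies on chromosome 11 at 78920787-78960254 (plus, ENSMUSG00000020826). Positions are whole genes in GRCm38. RefSeq promoters (GRCm38.p6) were matched for 3 of the 6 genes. The 250 bases before the annotated start are shown for all 3, since the genotypes were apart for Cybb in TAM-MG and for Ncf1 in bulk, and Cyba is the membrane partner of Cybb. Capitals mark matches on either strand to an interferon response element (GAAA, any 2 bases, then GAAA) or an interferon-gamma activated site (TTCNNNGAA). A PU.1 core was also searched in the form GAGGAA, and none of the 3 windows held these letters. Shorter or other forms of the PU.1 site were not searched.
Cybb, chrX:9469325-9469574, minus strand: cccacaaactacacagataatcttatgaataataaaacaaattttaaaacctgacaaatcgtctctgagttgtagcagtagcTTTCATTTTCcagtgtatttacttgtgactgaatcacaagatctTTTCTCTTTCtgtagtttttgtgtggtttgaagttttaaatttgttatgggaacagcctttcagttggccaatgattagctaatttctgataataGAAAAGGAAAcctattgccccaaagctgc
Cyba, chr8:122432941-122433190, minus strand: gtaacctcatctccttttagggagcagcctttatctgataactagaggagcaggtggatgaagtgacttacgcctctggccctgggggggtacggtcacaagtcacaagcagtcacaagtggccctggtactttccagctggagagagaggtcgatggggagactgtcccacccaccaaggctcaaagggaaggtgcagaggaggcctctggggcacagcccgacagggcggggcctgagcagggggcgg
Ncf1, chr5:134229626-134229875, minus strand: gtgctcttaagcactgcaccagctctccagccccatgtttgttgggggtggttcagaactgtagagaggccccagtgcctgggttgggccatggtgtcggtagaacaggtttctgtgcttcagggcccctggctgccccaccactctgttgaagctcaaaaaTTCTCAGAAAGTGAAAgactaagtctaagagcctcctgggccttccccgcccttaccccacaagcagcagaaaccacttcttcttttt
The Cybb window held 3 interferon response elements and had a GC content of 34.0%. The Ncf1 window (54.4% GC) held 1, which overlapped its 1 interferon-gamma activated site, and the Cyba window (60.0% GC) held none of the searched motifs. Over all 32851 RefSeq promoters of this length, 2.98% held the interferon response element, 7.02% the interferon-gamma activated site and 23.3% the PU.1 core, and the median GC content was 52.4%. The annotated Cybb gene extends further upstream than the RefSeq start used here, so this window lies inside the gene span given above. A match to these letters is a description of the sequence, and binding was not measured.

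Cybb in TAM-MG chose the set, so its lower level there follows from the selection. Its level was 368 and 484 CPM in the Rheb1 fl/fl libraries (74 and 78) and 159, 131 and 116 CPM in the Cx3cr1-Rheb1 Δ/Δ libraries (54, 63 and 65). Every Cx3cr1-Rheb1 Δ/Δ library lay below both controls. Group means were 426 ± 82.4 CPM (SD, n = 2) and 135 ± 21.6 CPM (SD, n = 3), a log2 fold change of -1.65 (SE 0.27), which is 3.15-fold lower. The TPM values gave the same order of the groups, with 86.3 and 84.7 against 39.2, 30.0 and 23.6.

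Its membrane partner Cyba was the most abundant of the 6 transcripts per length, at 3099 and 4612 TPM in Rheb1 fl/fl and 3146, 3164 and 3957 TPM in Cx3cr1-Rheb1 Δ/Δ TAM-MG, and the groups overlapped. On the CPM scale its log2 fold change was -0.33 (SE 0.34). Cybb TPM therefore amounted to 2.78% and 1.84% of Cyba TPM in the controls and to 1.25%, 0.948% and 0.597% in the Cx3cr1-Rheb1 Δ/Δ libraries.

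The cytosolic subunits of TAM-MG overlapped between genotypes. The organiser Ncf1 measured 256 and 241 CPM in Rheb1 fl/fl against 352, 275 and 227 CPM in Cx3cr1-Rheb1 Δ/Δ libraries, a log2 fold change of 0.20 (SE 0.28). The adaptor Ncf4 measured 121 and 183 against 95.3, 130 and 142 CPM (log2 fold change -0.31, SE 0.32). Neither gene separated the genotypes. The GTPase Rac2 measured 292 and 284 against 295, 181 and 205 CPM, a log2 fold change of -0.34 (SE 0.30). Cybb was the member whose groups did not overlap, 1 of the 6, beside 11.5% of all 14872 genes tested that lay lower without overlap. That share is background to the contrast that chose the genes. Leaving out control library 78 turned the differences of Cyba and Ncf4 to 0.08 and 0.02 on the log2 scale, whereas Cybb stayed between -1.82 and -1.43 with each library left out.

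**Figure D1:**
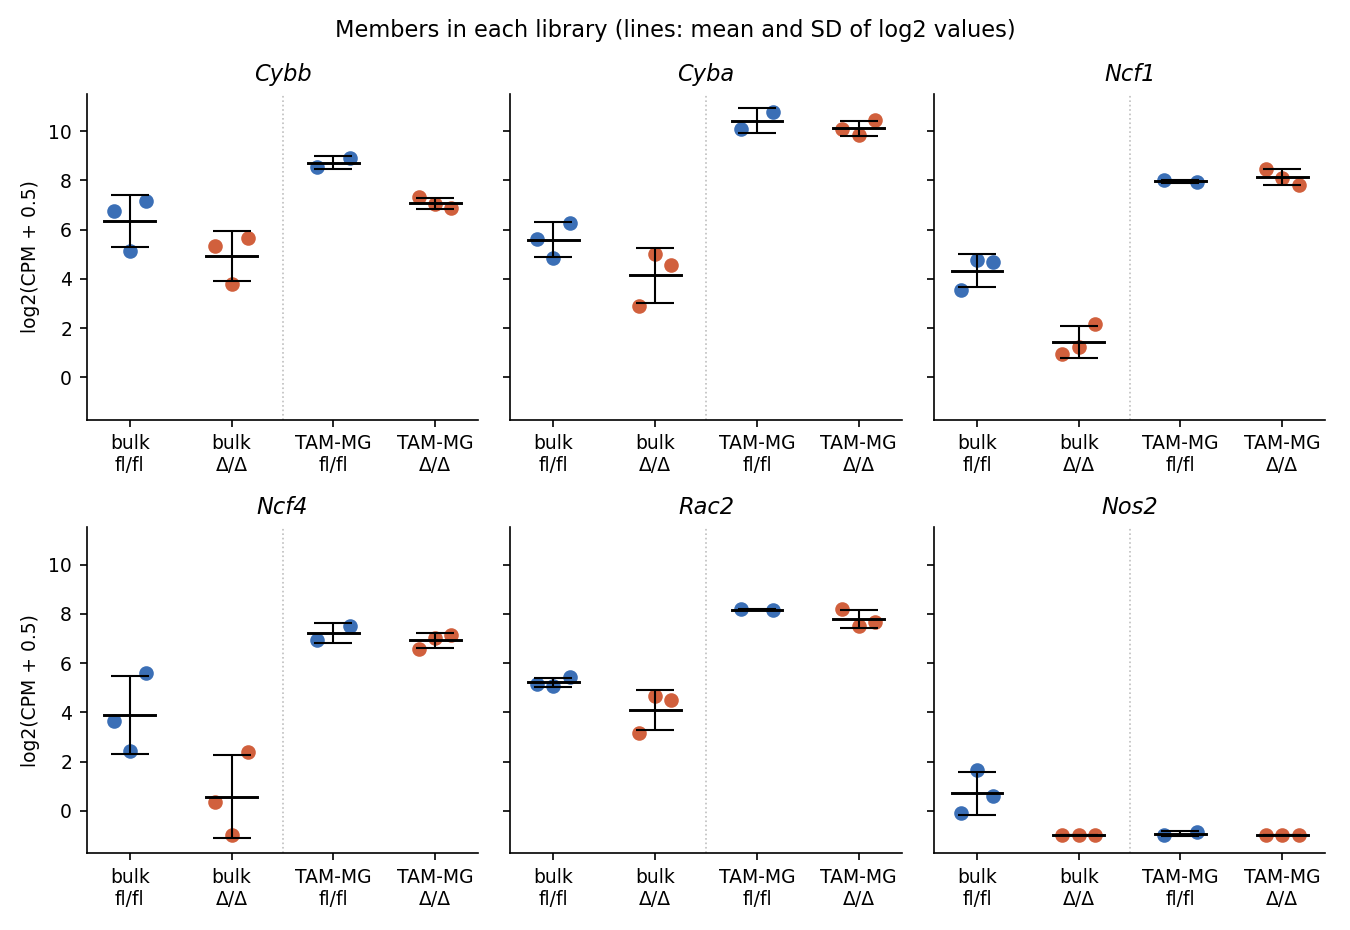
Level of each member in every library as log2(CPM + 0.5), with libraries as points and lines for the mean and SD of the log2 values of each group. Cybb in the 3 Cx3cr1-Rheb1 Δ/Δ TAM-MG libraries lies at 116 to 159 CPM, below both Rheb1 fl/fl libraries, while Cyba, Ncf1, Ncf4 and Rac2 overlap there.

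Ratios within a library use the Cybb values that chose the set, so they restate that contrast. The CPM ratio used an offset of 0.5 and so is not fully free of library scaling. Cybb TPM was 0.751 and 0.993 times Ncf1 TPM in Rheb1 fl/fl TAM-MG and 0.243, 0.249 and 0.251 times in Cx3cr1-Rheb1 Δ/Δ. Over the geometric mean CPM of Cyba, Ncf1, Ncf4 and Rac2, Cybb stood at 1.17 and 1.26 in controls and at 0.493, 0.474 and 0.377 after deletion. In both ratios the groups were apart.

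**Figure D2:**
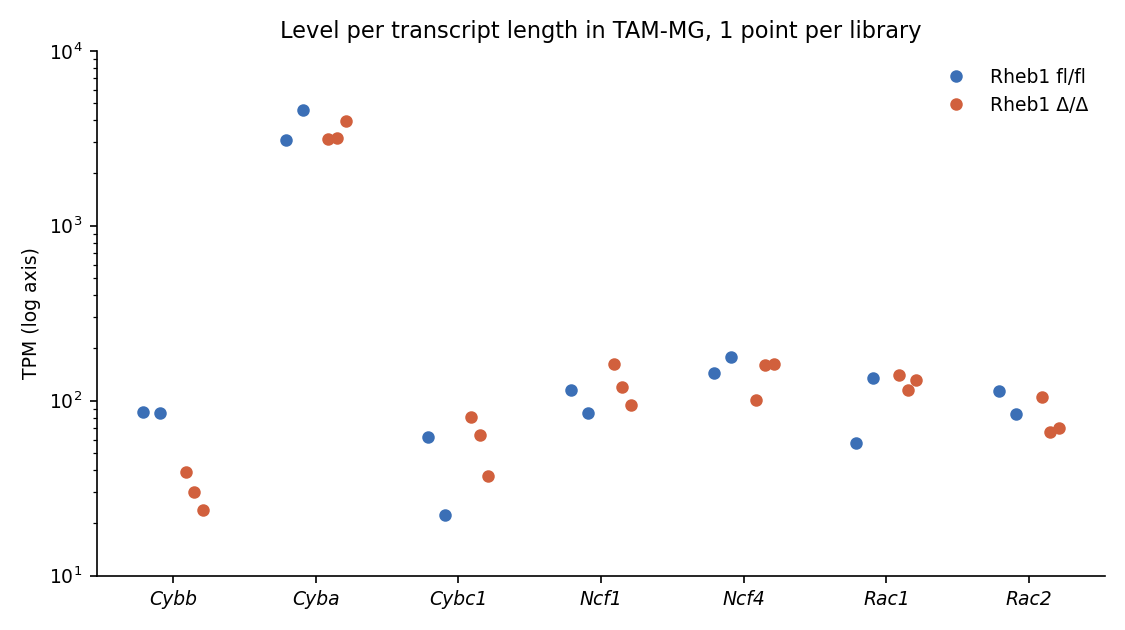
TPM of the oxidase subunits in the TAM-MG libraries on a log axis, each point one library. Cyba lies at or above 3099 TPM in all 5 libraries, and Cybb lies at 84.7 and 86.3 TPM in Rheb1 fl/fl and between 23.6 and 39.2 TPM in Cx3cr1-Rheb1 Δ/Δ.

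The rest of the oxidase machinery in TAM-MG is given by counts. Of the 7 oxidase genes listed (the 5 members, Rac1 and the chaperone Cybc1), 4 had negative and 3 positive log2 fold changes, with a median of -0.31 beside 0.08 over all genes tested, and Cybb was the only one without overlap. Of 12 genes that switch the oxidase on (exchange factors such as Vav1 and Prex1, kinases and partners), 4 had negative and 8 positive values, and 4 lay higher without overlap, Prex1 among them at 1.25 (SE 0.44), where 14.6% of all genes did so. Transcription factors, receptors and cytokines known to drive Cybb or Nos2 had 9 positive values among 12. Spi1 was at 0.66 (SE 0.42), Irf1 at 0.61 (SE 0.44), Irf8 at 0.42 (SE 0.27) and Cebpb at 1.94 (SE 1.11). Antioxidant genes (enzymes and their regulators) had 13 negative and 7 positive values among 20 genes. The 12 genes shared by microglia and macrophages (Tyrobp, Fcer1g, Laptm5, Ctss and others) had a median of 0.04, with no gene free of overlap, and summed to 38680 to 56130 CPM in controls and 42540 to 50570 after deletion. Markers of monocytes and macrophages from blood (Ly6c2, Ccr2, Itga4, Lyz2 and others, with 1 of 10 below the filter) had 8 negative values among 9 and summed to 827 to 1575 CPM in controls and 561 to 1211 CPM after deletion. Microglial markers had 10 positive values of 10, with a median of 0.69, and 6 lay higher without overlap. They summed to 19260 and 24330 CPM in controls and 22680 to 34130 CPM after deletion. The part of these lists and of the neutrophil genes in the Cybb values was not tested.

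In bulk tumours 5 of the 6 genes passed the filter on low counts and all 5 had negative log2 fold changes in Cx3cr1-Rheb1 Δ/Δ, but none was called by the quasi-likelihood test at an adjusted p of 0.05 and 1.5-fold. No gene at all was called lower by that test (0% of 17028), whereas edgeR's likelihood ratio test called 260 and DESeq2 330. At an unadjusted p under 0.05, 3 of the 5 were lower (Cybb, Ncf1 and Ncf4), beside 5.19% of all genes lower and 3.82% higher. Libraries did not overlap, with lower values in Cx3cr1-Rheb1 Δ/Δ, for 3 of the 5 genes that passed the filter (Ncf1, Ncf4 and Rac2), beside 9.23% of all genes tested. The Nos2 counts, below the filter, did not overlap either. In whole tumours, fewer cells of a type and less RNA per cell cannot be told apart.

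Cybb in bulk measured 108, 34.8 and 141 CPM in Rheb1 fl/fl (libraries 35, 38 and 110) and 39.5, 13.2 and 50.2 CPM in Cx3cr1-Rheb1 Δ/Δ (libraries 26, 36 and 37). The groups overlapped, because control 38 lay below both 26 and 37. Means were 94.5 ± 54.4 and 34.3 ± 19.02 CPM (SD, n = 3 each), and the log2 fold change of -1.46 (SE 0.59) had an adjusted p of 0.479 by edgeR's quasi-likelihood test. Cybb is X-linked, and library 35 was the only bulk library with Xist counts (10643) and none of Ddx3y, a pattern of a female sample. Without it the log2 fold change was -1.39 (adjusted p = 0.687).

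Cyba in bulk measured 49.1, 28.4 and 77.5 CPM against 6.91, 31.6 and 23.0 CPM, with overlap. Its log2 fold change was -1.33 (SE 0.62, adjusted p = 0.564 by edgeR). Cybb as a share of Cyba TPM ran from 4.11% to 13.7% in controls and from 2.69% to 20% after deletion, and the groups overlapped. The TPM of Cyba separated the groups, at 86.9 to 363 against 24.2 to 58.8.

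Ncf1 had the lowest p of the 5 genes tested in bulk counts. It measured 11.2, 26.3 and 24.9 CPM in Rheb1 fl/fl and 1.41, 1.85 and 4.03 CPM in Cx3cr1-Rheb1 Δ/Δ, from 201 to 586 counts and from 20 to 77 counts. All 3 Cx3cr1-Rheb1 Δ/Δ libraries were below every control. The log2 fold change was -3.09 (SE 0.92), 8.52-fold lower, with an adjusted p of 0.274 by edgeR's quasi-likelihood test. By edgeR's likelihood ratio test, the one the study applied, the adjusted p was 0.0495, so 1 of the 5 was called, where 1.53% of all genes were called lower. On log2(TPM + 1) the difference was smaller, at -1.37 (limma, adjusted p = 0.407), with 7.003 to 16.3 TPM against 2.80 to 3.53. Ncf1 shares 408 exonic bases (11.1% of its exons) with Gtf2ird2 on the opposite strand, and without strand the reads of both cannot be told apart.

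Ncf4 in bulk measured 11.8, 4.90 and 48.1 CPM against 0.775, 0 and 4.66 CPM. The highest Cx3cr1-Rheb1 Δ/Δ library lay just below the lowest control. Its log2 fold change of -3.56 (SE 1.54) had an adjusted p of 0.526 by edgeR, and moved from -2.21 without control 110 to -5.79 without Cx3cr1-Rheb1 Δ/Δ library 37. Rac2 measured 35.2, 33.5 and 42.6 CPM against 8.39, 24.8 and 21.8 CPM, also without overlap. Its log2 fold change was -1.02 (SE 0.56, adjusted p = 0.643 by edgeR). The GTPase Rac1 and the chaperone had log2 fold changes closer to 0, at -0.03 for Rac1 (SE 0.33) and 0.15 for Cybc1 (SE 0.55).

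**Figure D3:**
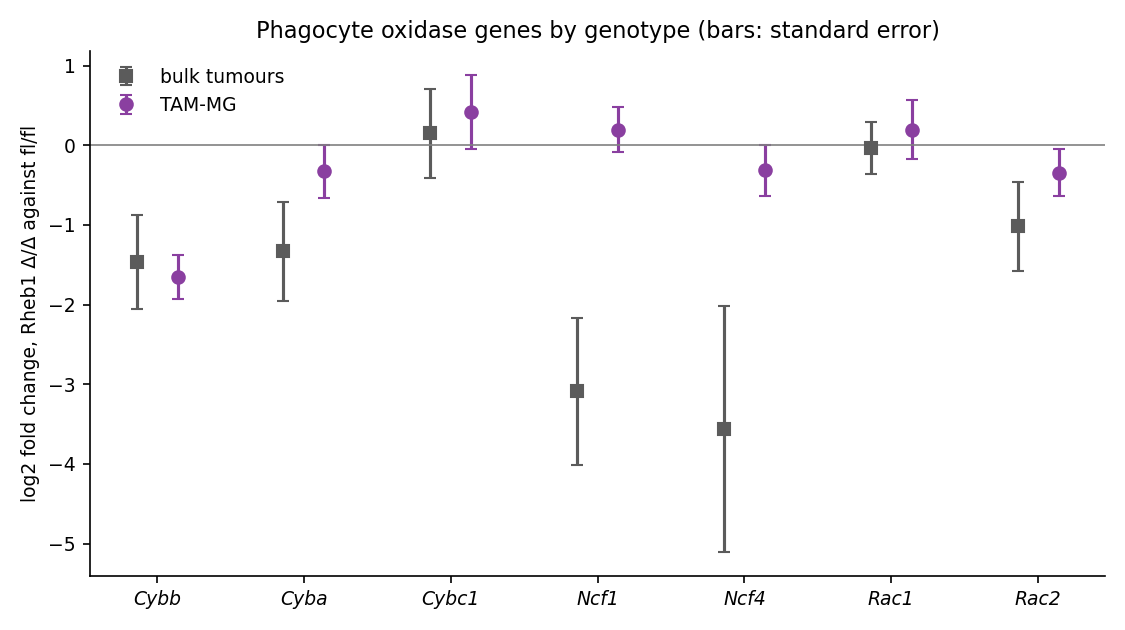
Log2 fold change of Cx3cr1-Rheb1 Δ/Δ against Rheb1 fl/fl for the oxidase genes in bulk and in TAM-MG, with bars of 1 SE. In bulk Ncf1 (-3.09) and Ncf4 (-3.56) lie lowest with wide bars, and in TAM-MG Cybb (-1.65), on which the set was chosen, lies lowest.

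Nos2, the inducible synthase, was nearly undetectable. Bulk Rheb1 fl/fl libraries held 8, 58 and 16 counts, and all 3 Cx3cr1-Rheb1 Δ/Δ libraries held 0. Every control was above every Cx3cr1-Rheb1 Δ/Δ library, though Nos2 was below the filter on low counts and was not tested. Pooled over libraries, 82 counts (1.46 CPM) stood against 0 counts, which allows up to 0.0613 CPM (3 counts over the group), so Nos2 was at least 23.8-fold lower, and at least 11.5-fold to 31.5-fold lower with each library left out in turn. This bound covers counting error only. In TAM-MG, 1 count of Nos2 fell in control library 78 among 123858403 counts of all 5 libraries, and TPM was listed at 0 in each. Nos2 had no entry in the bulk TPM table used here.

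Arg1, which competes with Nos2 for arginine, measured 1081, 4825 and 3428 counts in bulk Rheb1 fl/fl and 116, 49 and 523 counts in Cx3cr1-Rheb1 Δ/Δ. The groups did not overlap, and the log2 fold change was -3.66 (SE 0.77, adjusted p = 0.154 by edgeR's quasi-likelihood test, 0.000672 by its likelihood ratio test and 4.25e-06 by DESeq2). In TAM-MG it held 1 and 0 counts in controls and 562, 1069 and 13213 counts after deletion, where library 65 supplied most of them. Of 14 tested genes of the nitric oxide list (synthases, arginine handling and tetrahydrobiopterin synthesis), 10 had negative and 4 positive values in bulk, none was called by the quasi-likelihood test, and the median was -0.16 beside 0.00 over all genes. Arg1 and Pts, an enzyme of tetrahydrobiopterin synthesis (-1.95, SE 0.69), were lower at an unadjusted p under 0.05, and Asl, which regenerates arginine, was higher (1.75, SE 0.68). In TAM-MG the list split into 8 negative and 7 positive values.

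Marker genes of several immune cell types had lower bulk values as well. All 12 genes shared by microglia and macrophages had negative log2 fold changes in bulk, with a median of -1.40, 10 of them without overlap and 10 at an unadjusted p under 0.05, though none was called. Their summed level ran from 2543 to 4522 CPM in Rheb1 fl/fl and from 851 to 1690 CPM in Cx3cr1-Rheb1 Δ/Δ. Microglial markers had 10 negative values of 10 (254 to 482 CPM against 33.6 to 148 CPM). Markers of blood monocytes and macrophages had 8 of 10 (2268 to 3612 CPM against 1424 to 2970 CPM). Vim alone held 1664 to 2777 CPM of that sum in Rheb1 fl/fl and 1337 to 2744 CPM in Cx3cr1-Rheb1 Δ/Δ. Its log2 fold change was -0.23 (SE 0.35), so the sum mostly follows Vim. Ly6c2, Ccr2 and Lyz2 were at -3.07, -3.805 and -3.64, and Itga4 at 0.42. Lymphocyte markers had 8 negative values of 8 tested (median -1.65, 45.9 to 150 CPM against 10.2 to 33.2 CPM). The study reported more CD4 and CD8 T cells in Cx3cr1-Rheb1 Δ/Δ tumours, by cell fractions estimated from RNA, flow cytometry and tissue staining. It also reported more macrophages of bone marrow origin by flow cytometry. The study found fewer TAM-MG by flow cytometry as well, and lower RNA of markers of tumour-associated microglia and macrophages in bulk. The microglial and shared myeloid values here had that same direction. Why the lymphocyte values and most blood monocyte and macrophage values lay the other way was not tested. Neutrophil genes had 3 negative values of 3 tested (89.5 to 479 CPM against 59.9 to 395 CPM). Most of that sum was Lcn2, at 68.0 to 458 CPM and 55.0 to 393 CPM, and Ly6g, Elane and Camp held 0 counts. The 7 oxidase genes had a median of -1.33 and 6 negative values, and summed to 277 to 434 CPM and 206 to 232 CPM. Genes that switch the oxidase on had 9 negative values of 12, with Vav1 at -1.93 (SE 0.97), and inducers 9 of 12, with Irf1 at -1.84 (SE 0.30, adjusted p = 0.116) and Irf8 at -2.97 (SE 0.63, adjusted p = 0.154), both called by the likelihood ratio test (adjusted p = 0.000122 and 0.00143). Antioxidant genes lay near the middle, with 13 negative and 9 positive values and a median of -0.07. Neuronal markers had 2 negative and 4 positive values. They summed to 1956 to 2727 CPM against 3524, 3487 and 1458 CPM in libraries 26, 36 and 37. Libraries 26 and 36 also had the lowest shared myeloid sums, at 851 and 1200 CPM. Astrocyte and oligodendrocyte markers had 6 negative and 2 positive values, and endothelial markers 3 and 3. The part of brain tissue in the slides was not tested.

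Expressed relative to the mean log2 level of the 12 shared myeloid genes in the same library, the bulk difference of Cybb was 0.09 on the log2 scale (-0.81 ± 0.96 in Rheb1 fl/fl and -0.72 ± 0.85 in Cx3cr1-Rheb1 Δ/Δ, SD, n = 3 each, exact permutation p = 0.8, two-sided). The relative differences of Cyba and Rac2 were 0.08 and 0.39 (exact permutation p = 1 and 0.7). By this measure Ncf1 was at -2.84 ± 0.53 and -4.19 ± 0.13, a difference of -1.35 without overlap (exact permutation p = 0.1, the smallest that 3 libraries against 3 allow, 0.5 after Benjamini-Hochberg adjustment over the 5 genes). Ncf4 differed by -1.79 with overlap (exact permutation p = 0.2, adjusted 0.5). On log2(TPM + 1) the relative difference of Ncf1 was 0.19, so its direction depends on the quantification. With the microglial markers as reference the bulk differences were smaller for Ncf1 (-0.37) and Ncf4 (-0.82) and larger for Cybb (1.07), Cyba (1.06) and Rac2 (1.37), with exact permutation p from 0.1 to 0.6. In TAM-MG, where the shared myeloid genes overlapped between genotypes, Cybb relative to them was -2.26 ± 0.12 (SD, n = 2) and -3.95 ± 0.24 (SD, n = 3), a difference of -1.69, and the relative differences of the other members ran from -0.41 for Rac2 to 0.14 for Ncf1, with Ncf4 (-0.34) also without overlap by this measure.

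**Figure D4:**
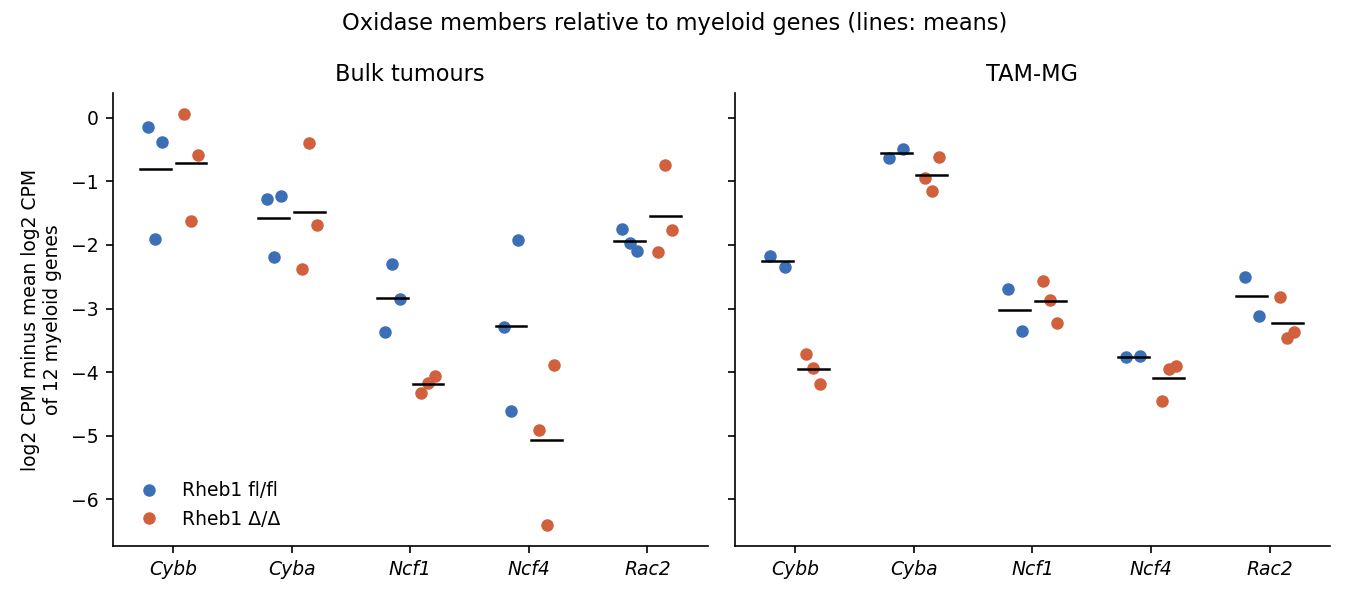
Log2 level of each tested member minus the mean log2 level of 12 genes shared by microglia and macrophages, per library, in bulk and in TAM-MG, with lines at the group means. In bulk the genotypes overlap for Cybb, Cyba, Ncf4 and Rac2 and not for Ncf1, and in TAM-MG all 3 Cx3cr1-Rheb1 Δ/Δ values of Cybb (-3.71 to -4.19) lie below the controls (-2.17 and -2.35).

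Sorted TAM-MG were compared with bulk tumours over all 11 libraries. The sort selects CD11b+ cells, and fresh cells against fixed tissue cannot be told apart from TAM-MG against bulk. The 5 oxidase members of the 6 genes were higher in TAM-MG, while Nos2 was not called, beside 20.5% of 21342 genes called higher and 32.4% called lower by the same test, and a median log2 difference of -0.89 over all genes. The same 5 were also higher without overlap, beside 14.6% of all genes. Cyba was 57.8-fold higher (log2 5.85, SE 0.45, adjusted p = 4.23e-06 by edgeR's quasi-likelihood test) and Ncf1 55.3-fold (log2 5.79, SE 0.38, adjusted p = 1.86e-06). Ncf4 was 32.3-fold higher (log2 5.01, SE 0.90, adjusted p = 0.00102) and Rac2 14.6-fold (log2 3.86, SE 0.31, adjusted p = 6.25e-06). Cybb had the smallest difference of the 5 oxidase members, 6.29-fold (log2 2.65, SE 0.41, adjusted p = 0.000423).

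On the scale common to the 11 libraries, Cybb ran from 436 to 601 CPM in Rheb1 fl/fl TAM-MG, from 146 to 199 CPM in Cx3cr1-Rheb1 Δ/Δ TAM-MG, from 29.0 to 117 CPM in bulk Rheb1 fl/fl and from 11.1 to 41.8 CPM in bulk Cx3cr1-Rheb1 Δ/Δ. Neighbouring groups were apart except for the 2 bulk groups. Within each genotype the log2 difference of Cybb between TAM-MG and bulk was 2.73 in Rheb1 fl/fl and 2.57 in Cx3cr1-Rheb1 Δ/Δ. It was 4.13 and 7.45 for Ncf1, 5.34 and 6.37 for Cyba, 3.51 and 4.22 for Rac2 and 3.38 and 6.65 for Ncf4. For Ncf4 in Rheb1 fl/fl the adjusted p by edgeR was 0.0571 in the model of all 4 groups and 0.0348 when the Rheb1 fl/fl libraries were fitted alone. These within-genotype values draw on the TAM-MG libraries that chose the genes, and their difference was not tested.

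All 7 oxidase genes listed were higher in TAM-MG, with a median log2 difference of 3.86. Rac1 stood at 2.79 (SE 0.26) and Cybc1 at 2.33 (SE 0.38), and 51.4% of the Rac1 exons overlap Daglb on the opposite strand. The 12 shared myeloid genes were all higher with a median of 5.05, the 10 microglial markers likewise with a median of 7.16, and of 11 neutrophil genes tested 5 were higher and 1 lower. Genes that switch the oxidase on were higher for 7 and lower for 2 of 12, with Vav1 at 5.45 (SE 0.40) and Tiam1 at -3.92 (SE 0.71). Inducers were higher for 9 and lower for 1 of 13, with Spi1 at 4.92 (SE 0.51), Irf8 at 4.67 (SE 0.39) and Cebpb, the one lower, at -2.34 (SE 0.51). The nitric oxide list was mixed, 5 higher and 4 lower of 16. One of the 5, Arg2, is uncertain, since it held 340 to 543 counts in TAM-MG but 0 to 0.894 TPM, and it shares 285 exonic bases with Vti1b on the opposite strand. Asl (2.46, SE 0.40) and Nosip (2.33, SE 0.25) were higher, and the arginine transporter Slc7a1 (-2.32, SE 0.33) and Ddah1 (-2.96, SE 0.51) lower. Antioxidant genes were higher for 8 and lower for 7 of 22, with Gpx1, a peroxide-removing enzyme, at 2.32 (SE 0.24) and the extracellular superoxide dismutase Sod3 lower and at 0 counts in every TAM-MG library.

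**Figure D5:**
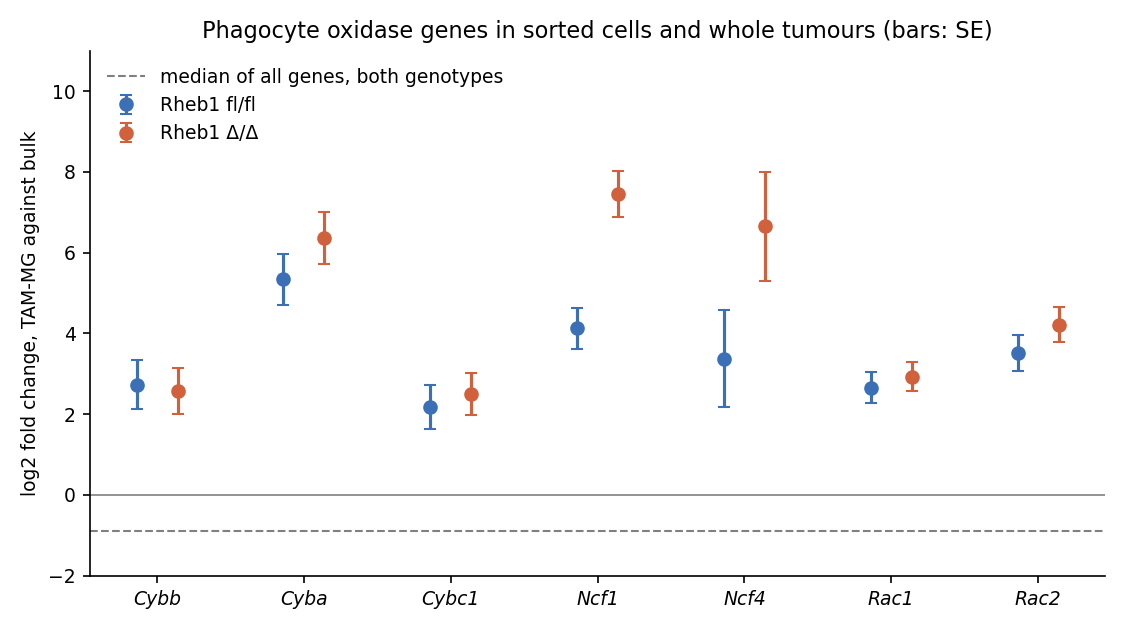
Log2 difference between TAM-MG and bulk for the 7 oxidase genes within each genotype, with bars of 1 SE and a dashed line at the median of all genes (-0.89). Every gene lies above that line, and Ncf1 runs from 4.13 in Rheb1 fl/fl to 7.45 in Cx3cr1-Rheb1 Δ/Δ while Cybb is at 2.73 and 2.57.

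Across the 11 libraries, patterns were compared by the root mean square difference of log2 profiles, each centred on its own mean, over 21342 genes. The genes nearest to Cybb were Vps26c (0.504), Usp18 (0.608) and Xrcc6 (0.639), where the median gene lay at 2.14. Cyba was nearest to Lpcat2 (0.341), C1qa (0.465) and C1qb (0.530), and Ncf1 to Lcp1 (0.518), Cd84 (0.537) and Ctsc (0.587). Ncf4 was nearest to Itgb3 (0.585), Ctsc (0.670) and Scimp (0.674), and Rac2 to Pmpca (0.289), Naglu (0.296) and Man2b1 (0.343). Among the members themselves, Cyba and Ncf1 were the nearest pair at 0.859, and Cybb was nearest to Rac2 at 1.07. Nos2 was nearest to Gm48903, Mcpt4 and Gm37161 (0.133 to 0.229), a likeness of counts near 0. These are descriptions over libraries that share the contrast between sorted cells and tissue.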

How the data were processed

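RNA was measured in 6 bulk GL261 libraries and 5 TAM-MG libraries, prepared with SmartSeq2 and Nextera XT and read as 75 bp pairs. The authors deposited raw counts per gene, made with STAR on GRCm38, and TPM, made with Salmon and summed to genes (versions not given in the sources used here). The deposited TAM-MG TPM table carries an unnamed total line equal to 100% of its gene sum, so its values were read as a score on the TPM scale, and this line, like that of the TAM-MG counts, was left out. The bulk TPM values cover 12719 genes and those of TAM-MG 34839, and they were normalised separately, so TPM was compared within a table only.

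Counts were filtered with filterByExpr (minimum count 10, minimum total 15), scaled by TMM and fitted with edgeR's quasi-likelihood test (R 4.3.3, edgeR 4.0.16), with Benjamini-Hochberg adjustment over all genes tested. Calls required an adjusted p under 0.05 together with a difference of 1.5-fold or more. Bulk genotype and TAM-MG genotype were fitted separately, and TAM-MG against bulk in a model of 4 groups. Log2 CPM per library used an offset of 0.5. Alternatives were edgeR's likelihood ratio test, DESeq2 1.42.0, limma 3.58.1 on log2(TPM + 1) and log2(TPM + 0.1), other scalings and filters, and each library left out. The fits were tested on simulated data. Where a group had 0 counts, the bound used a floor of 3 counts.

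The members and gene lists were chosen with earlier results of these data known, and some list genes are not reported here and were left out of the list counts. Named genes were the members, all genes of the oxidase and nitric oxide lists, the first 4 tested genes of each other list, the 3 genes nearest in pattern to each member, and Rheb. Il1b, Xist, Ddx3y, Ly6g, Elane, Nox3, Vim, Cxcr2, Nfkb1, P2ry13 and the genes named only for overlapping exons were chosen after their values were seen. The libraries are numbered but the sources do not say for TAM-MG that each came from its own mouse, so p-values measure the spread between these libraries.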

Additional observations from a re-analysis of the deposited data

Results flagged for a closer look

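For the following genes, none of them a member, the 2 experiments gave log2 fold changes of opposite sign on Rheb1 deletion, and in each experiment the libraries of both genotypes did not overlap. The difference between the experiments was tested as an interaction in edgeR's quasi-likelihood fit of all 11 libraries. This test was chosen after these values were seen, and the genes were picked on the same values. In it, 48 of 21342 genes had an adjusted p under 0.05. Preparation (fixed tissue or fresh sorted cells) and experiment cannot be told apart. Arg1 was at -3.66 in bulk and 13.03 in TAM-MG (interaction 16.75, adjusted p = 0.0456 by edgeR), a fitted TAM-MG value that depends on the prior count because controls held 1 count in all. Sall1, a transcription factor of microglia, was at -2.55 and 1.59 (interaction 4.18, adjusted p = 0.0456 by edgeR). Aqp4, an astrocyte water channel, was at -1.70 and 9.17 (interaction 10.90, adjusted p = 0.0470 by edgeR). Its TAM-MG controls held 0 counts, so the fitted 9.17 also depends on the prior count. The interaction missed the threshold for Csf3r (-4.80 and 0.71, adjusted p = 0.0871), Irf8 (-2.97 and 0.42, adjusted p = 0.112), Pts (-1.95 and 0.59, adjusted p = 0.297) and Tmem119 (-1.80 and 0.82, adjusted p = 0.309).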

How the results depend on the processing

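No paired analysis was possible because the groups compared share no replicate numbers. Cybb, Cyba, Ncf1, Ncf4 and Rac2 kept a negative bulk log2 fold change under all 13 or 14 alternatives, and all 5 stayed called higher in TAM-MG than in bulk under the 18 or 19 alternatives run. Ncf1 in bulk passed the threshold with the likelihood ratio test (-3.09, adjusted p = 0.0495) and DESeq2 (-3.11, adjusted p = 0.00934). Bulk genes called lower and higher were 0 and 0 by the quasi-likelihood test, 85 and 17 with no filter, 54 and 8 with a minimum of 10 counts in each library, 260 and 123 by the likelihood ratio test and 330 and 140 by DESeq2. They were 1 and 0 by limma with either pseudocount, and 0 to 7 and 0 to 1 with a library left out, where the highest values came without Cx3cr1-Rheb1 Δ/Δ library 37. In TAM-MG the quasi-likelihood test called 0 and 0 of 14872 genes, with 342 lower and 813 higher at an unadjusted p under 0.05, and the likelihood ratio test called 70 and 175 and DESeq2 88 and 385. Of TAM-MG against bulk, the 4370 genes called higher and 6913 called lower became 2279 and 2292 under the minimum of 10, and 2321 and 4082 with Rheb1 fl/fl libraries only, and those called lower 3703 with Cx3cr1-Rheb1 Δ/Δ libraries only. Relative to shared myeloid genes in bulk, leaving out a library moved Cybb from -0.45 to 0.55, Cyba from -0.46 to 0.52 and Rac2 from -0.0048 to 0.68, and log2(TPM + 1) gave -0.19 for Cyba and 0.19 for Ncf1. Microglial markers as reference gave 1.07 for Cybb, 1.06 for Cyba, -0.37 for Ncf1, -0.82 for Ncf4 and 1.37 for Rac2 in bulk, and Aif1 alone gave the same signs, with no exact permutation p below 0.1, the smallest possible. In TAM-MG the relative value of Ncf1 ran from -0.19 to 0.46 with a library left out, and microglial markers as reference gave -2.37 for Cybb, -1.03 for Cyba, -0.55 for Ncf1, -1.02 for Ncf4 and -1.10 for Rac2. Outside the members, bulk values with a library left out ran from -0.26 to 0.088 for Rac1 and -0.16 to 0.72 for Cybc1, and limma with pseudocounts 1 and 0.1 gave 0.2201 and 0.2218 for Rac1 and -0.53 and -0.57 for Cybc1. It gave -0.0955 and -0.0962 for Pts in TAM-MG. With a library left out, Cyba and Ncf4 in TAM-MG ran from -0.62 to 0.084 and from -0.56 to 0.025. Arg1, Irf1 and Irf8 in bulk, not called by the quasi-likelihood test, were called with no filter, with the minimum of 10, by the likelihood ratio test and by DESeq2, and Il1b under these except the minimum of 10. The causes were not tested. Limma on TPM was not run for TAM-MG against bulk, since the TPM tables differ in genes and scaling. Where a left-out library leaves 1 TAM-MG control, that library is assumed to vary like the other groups.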

Other observations

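Several genes around the 6 members carried values that the comparisons above do not use. Of the 9 other NADPH oxidase genes (Nox1, Nox3, Nox4, the Duox pair and their partners), none passed the filter on low counts in bulk, and 3 passed in TAM-MG (Nox1, Noxo1 and Duoxa1). Nox1 held 0 counts in all 6 bulk libraries while its bulk TPM was 6.52, 6.82 and 11.04 in Rheb1 fl/fl and 0.360, 1.502 and 0.223 in Cx3cr1-Rheb1 Δ/Δ. In TAM-MG it held 84 and 53 counts in controls and 20, 94 and 39 counts after deletion, with TPM at or below 0.00750. Nox1 shares 399 exonic bases (12.1% of its exons) with Cstf2 on the opposite strand, and Noxo1 shares 2122 (70.4%) with Tbl3. The cause of the disagreement between counts and TPM was not tested, and no value of these genes was used.

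Il1b, an inflammatory cytokine, held 356, 242 and 640 counts in bulk Rheb1 fl/fl and 0, 0 and 3 counts in bulk Cx3cr1-Rheb1 Δ/Δ libraries. Its adjusted p was 0.123 by edgeR's quasi-likelihood test, 3.79e-06 by its likelihood ratio test and 7.65e-09 by DESeq2, and with a library left out or another scaling it was not called by the quasi-likelihood test. Every bulk control lay above every bulk Cx3cr1-Rheb1 Δ/Δ library. In TAM-MG the groups overlapped, at 2721 and 17930 counts in controls and 5526 to 7621 counts after deletion.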
